A study of Mus musculus with 6 samples.

Results

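The Egr and Nr4a families and the Nab corepressors were followed in mouse brain 6 h after a 1 h occlusion of the middle cerebral artery. The members were 9 genes, the 4 Egr genes, the 2 Nab genes and the 3 Nr4a genes, found by exact symbol among 23473 gene-symbol rows of the expression table, and all 9 passed the filter on low counts. The ischemia/reperfusion group comprised 3 libraries from adult male C57BL/6 mice in which a filament blocked the artery for 1 h and was then withdrawn for 6 h of reperfusion. The sham group comprised 3 libraries from mice that had the same surgery under chloral hydrate without insertion of the filament. Per the labels' protocols the mice were 8 to 9 weeks old, and the labels give the tissue as brain without naming a region or a hemisphere. They do not say that each library came from a separate animal, and the p-values therefore reflect spread among these libraries alone. Libraries of one group differed by more than counting noise, and what share of that spread may be technical is not known.

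Immediate early genes are switched on in neurons and glia without new protein synthesis when calcium, growth factor or stress signals reach serum response factor and CREB at their promoters. Egr proteins are zinc finger transcription factors that bind GC-rich sites, and Nab1 and Nab2 are corepressors that bind Egr1, Egr2 and Egr3 and close a negative feedback loop. Nr4a proteins are nuclear receptors that act without a classical ligand, bind an element called NBRE and are induced by the same signals as the Egr genes.

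RefSeq promoters (GRCm38.p6) were found for 7 of the 9 members in 11 entries, each with 250 bases before and 50 bases after a transcript start. Egr1 and Egr3 had no entry, and their promoters were not searched. The promoters of Egr2, with the largest difference between groups, and of Egr4, Nr4a1 and Nr4a2 are shown as examples with the CRE core. Nab1 and Nr4a3 also held this core and are not shown. Egr4 and Nr4a1 ranked the libraries in the same order, and Egr2 and Nr4a2 each ranked them in another order. Each is written 5′ to 3′ on the strand of its gene, from chr10:67537619-67537918 (plus strand) for Egr2, chr6:85513540-85513839 (minus strand) for Egr4, chr15:101266596-101266895 (plus strand) for Nr4a1 and chr2:57123954-57124253 (minus strand) for Nr4a2. Capitals mark the CRE core (TGACG, or CGTCA on the other strand), the CArG box bound by serum response factor, and the EGR site.
Egr2: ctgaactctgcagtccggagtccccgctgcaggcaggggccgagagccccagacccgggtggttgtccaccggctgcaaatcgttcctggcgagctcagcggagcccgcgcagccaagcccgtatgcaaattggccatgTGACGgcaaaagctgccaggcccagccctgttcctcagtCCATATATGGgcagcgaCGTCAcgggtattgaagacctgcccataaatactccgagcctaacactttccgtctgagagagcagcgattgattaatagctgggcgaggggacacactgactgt
Egr4: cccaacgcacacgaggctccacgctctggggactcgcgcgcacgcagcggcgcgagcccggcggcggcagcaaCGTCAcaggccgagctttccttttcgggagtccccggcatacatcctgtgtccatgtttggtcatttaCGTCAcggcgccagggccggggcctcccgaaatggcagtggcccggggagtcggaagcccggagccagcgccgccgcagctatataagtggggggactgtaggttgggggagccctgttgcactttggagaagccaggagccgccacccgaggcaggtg
Nr4a1: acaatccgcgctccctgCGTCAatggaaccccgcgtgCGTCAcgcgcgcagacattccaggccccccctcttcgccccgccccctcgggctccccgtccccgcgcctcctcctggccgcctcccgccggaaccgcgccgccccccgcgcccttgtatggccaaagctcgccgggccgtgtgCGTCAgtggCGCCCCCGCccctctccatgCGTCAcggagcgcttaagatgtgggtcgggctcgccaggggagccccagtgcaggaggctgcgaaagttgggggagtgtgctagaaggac
Nr4a2: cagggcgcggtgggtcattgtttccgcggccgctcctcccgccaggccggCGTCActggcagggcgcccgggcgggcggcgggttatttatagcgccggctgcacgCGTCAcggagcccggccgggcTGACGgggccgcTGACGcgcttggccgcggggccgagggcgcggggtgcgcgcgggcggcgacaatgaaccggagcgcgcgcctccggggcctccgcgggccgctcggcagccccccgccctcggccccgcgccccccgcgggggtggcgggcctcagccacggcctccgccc

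The CRE core was found in 6 of the 7 members with an entry, Nab2 being the exception. By entry it was in 8 of 11, some of the Egr2 entries overlapping, against 20.8% of all 32851 promoters searched on both strands. Nr4a1, Nr4a2 and Nr4a3 held 4 cores each and Egr4 held 2. The complete CRE (TGACGTCA), which contains the core, was in none of the members' entries and in 1.79% of all promoters. The CArG box was in the Egr2 promoter, with its first base at position −72 from the start and between cores at −111 and −55, and in 1.63% of all promoters. An EGR site (GCGTGGGCG or GCGGGGGCG) was in the promoters of Nab1, with 3 matches, and of Nr4a1, with 1 match at −60, and in 3.47% of all promoters. None of the 7 members with an entry held the NBRE letters (AAAGGTCA), which were in 1.51% of all promoters. For Egr1 and Egr3 none of these motifs was searched. These matches describe letters in a short window and were not tested against the expression values.

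Library totals were 45425867 to 48563351 counts in ischemia/reperfusion and 48130054 to 49686109 counts in sham. Values below are CPM, counts scaled to the TMM-adjusted library total, unless given as RPKM, which also divides by length, and tests were edgeR's quasi-likelihood test adjusted by Benjamini-Hochberg over 40170 rows, which passed 0.00249% of rows. Neuronal markers were present in every library (Snap25 at 993 to 1284 CPM in ischemia/reperfusion and 1046 to 1247 CPM in sham). The 6 neuronal markers summed to 2727 to 3300 CPM in ischemia/reperfusion and 3122 to 3194 CPM in sham. Among them Tubb3 was lower without overlap, at 363 to 427 CPM in ischemia/reperfusion against 473 to 516 CPM in sham. Slc32a1 was higher without overlap, at 72.3 to 84.1 CPM in ischemia/reperfusion against 55.6 to 62.6 CPM in sham. For the other neuronal markers the groups overlapped. A group of 3 markers of the dentate gyrus (Prox1, Dsp and C1ql2) summed to 14.7 CPM in ischemia/reperfusion replicate 1, against 73 to 76.6 CPM in the other ischemia/reperfusion libraries and 51.5 to 74.6 CPM in sham. In the same library 6 striatal markers summed to 423 CPM, against 169 CPM or less in the other ischemia/reperfusion libraries and 232 CPM or less in sham. Other libraries differed in other markers. Oligodendrocyte markers summed to 2947, 3786 and 7536 CPM in ischemia/reperfusion replicates 1, 2 and 3, against 3676 to 4459 CPM in sham. A list of 5 thalamus and hypothalamus markers summed to 111, 99.3 and 177 CPM in ischemia/reperfusion, against 116, 87.7 and 132 CPM in sham. Among them Hcrt, a hypothalamic marker, had 18.9, 0.108 and 28.2 CPM in ischemia/reperfusion, against 1.02, 0.0644 and 12.7 CPM in sham. Within ischemia/reperfusion, Avp and Oxt were lowest in replicate 2 as Hcrt was. Tcf7l2 (3.03, 10.8 and 14.6 CPM) and Prkcd (49.4, 88.3 and 121 CPM) were lowest in replicate 1. Sham replicate 2 had the highest level of other immediate early genes in its group, with 24 genes summing to 1088 CPM against 634 and 645 CPM in the other sham libraries.

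The sign of the log2 fold change was positive for 7 of the 9 members, against 53.1% of all rows tested. Its median was 0.64 over the 9 members and 0.02 over all rows. None passed an adjusted p of 0.05 with edgeR, and 1, Egr2, passed with DESeq2, which called 1.8% of the rows it adjusted. With edgeR and no adjustment, 5 members were higher at p under 0.05 (Egr2, Nab2, Egr3, Egr4 and Nr4a3) and 0 lower, against 8.73% of all rows higher and 6.9% lower. Every ischemia/reperfusion library lay above every sham library for 3 members (Egr2, Egr3 and Nab2), as for 10.8% of all rows. Without ischemia/reperfusion replicate 1 this held for 7 members, against 20.7% of all rows, and without sham replicate 2 for the same 7 members, against 16.4% of all rows. The members outside those 7 were Nab1 and Nr4a2. Ischemia/reperfusion replicate 1 was the lowest of its group for 6 members and sham replicate 2 the highest for 7, so leaving either out favours separation. In either direction, the groups did not overlap for 4 members without ischemia/reperfusion replicate 2. It was 3 members without ischemia/reperfusion replicate 3, sham replicate 1 or sham replicate 3.

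**Figure D1:**
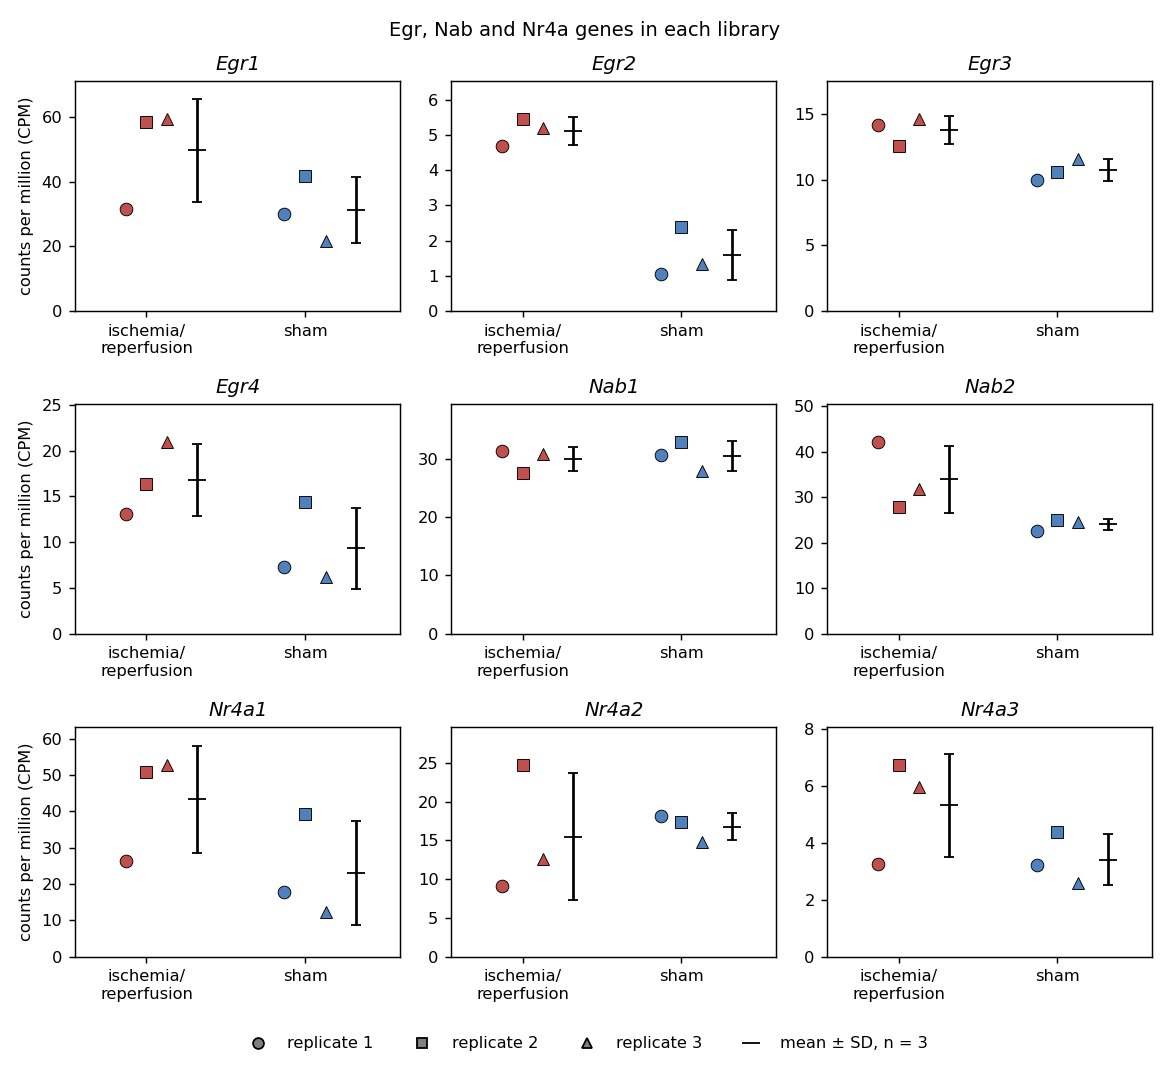
CPM of each member (y axes, linear, from 0) in the 3 ischemia/reperfusion libraries and the 3 sham libraries, with marker shapes for replicate numbers and bars for the mean ± SD. Egr2, Egr3 and Nab2 show no overlap between groups, whereas ischemia/reperfusion replicate 1 lies among the sham libraries for Egr1, Egr4, Nr4a1 and Nr4a3.

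Egr2 (also called Krox20), which patterns the hindbrain and directs myelination by Schwann cells, had the largest difference among the members. It lies on chromosome 10 from 67537869 to 67542188 (mm10, plus strand). Its levels were 4.68, 5.45 and 5.21 CPM in ischemia/reperfusion replicates 1, 2 and 3, against 1.04, 2.4 and 1.34 CPM in the sham replicates. The ischemia/reperfusion libraries lay close together and the highest sham library, replicate 2, stayed below the lowest of them. The log2 fold change was 1.68 ± 0.27 (SE), a 3.2-fold difference, with an edgeR adjusted p of 0.123 and a DESeq2 adjusted p of 4.14e-06. By its edgeR p Egr2 had rank 7 among 16642 gene-symbol rows tested. It passed the edgeR threshold without ischemia/reperfusion replicate 1 (adjusted p = 0.02), where 2.58% of all rows did, without sham replicate 2 (adjusted p = 0.022, log2 fold change 2.09), where 0.0824% did, and with no filter on low counts (adjusted p = 0.0196), where 0.142% did. Egr2 did not pass without ischemia/reperfusion replicate 2 (edgeR adjusted p = 0.0978) or 3 (0.361), nor without sham replicate 1 (0.491) or 3 (0.361). Its raw counts were 233 to 252 in ischemia/reperfusion and 51 to 112 in sham, the lowest among the Egr genes.

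Egr1 (Zif268), the most studied member of its family and a marker of recent neuronal activity, lies on chromosome 18 from 34861207 to 34864956 (plus strand). It had 31.4, 58.6 and 59.3 CPM in ischemia/reperfusion, against 30.1, 41.8 and 21.6 CPM in sham. The groups overlapped, since ischemia/reperfusion replicate 1 lay between sham replicates 1 and 2. For Egr1 the log2 fold change was 0.67 ± 0.34 (SE), with an edgeR adjusted p of 0.398. It ranged from 0.46 to 0.94 when each library was left out in turn and passed the threshold in none of these fits.

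Egr4, a member of the family without the domain that binds Nab proteins, lies on chromosome 6 from 85511122 to 85513542 (minus strand). Its levels were 13.1, 16.4 and 20.9 CPM in ischemia/reperfusion, against 7.31, 14.4 and 6.25 CPM in sham. The overlap came from sham replicate 2, which lay above ischemia/reperfusion replicate 1. The log2 fold change of 0.85 ± 0.34 (SE) had an edgeR adjusted p of 0.305 and was 1.30 without sham replicate 2 (adjusted p = 0.0725). Without sham replicate 3 it was 0.62 (edgeR adjusted p = 0.465).

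Egr3, which the muscle spindle needs for its development, showed a small difference with little spread. It had 14.2, 12.6 and 14.6 CPM in ischemia/reperfusion, against 9.97, 10.6 and 11.6 CPM in sham. No library of either group crossed into the range of the other. For Egr3 the log2 fold change was 0.36 ± 0.12 (SE), with an edgeR adjusted p of 0.224. The deposited row covers chromosome 14 from 70077445 to 70080157, while RefSeq places the end of the gene at 70082613. A cDNA clone row (fantom3_6430581J15) on the same strand, from 70079423 to 70082545, overlaps the end of the Egr3 row and runs past it. It had 30.2, 25.3 and 33.1 CPM in ischemia/reperfusion, against 22.9, 27.4 and 25.3 CPM in sham, with a log2 fold change of 0.23 ± 0.12 (edgeR adjusted p = 0.392). Its groups overlapped, unlike those of the Egr3 row. Per length the clone row and the gene row were alike, at 8.14 to 10.9 and 8.94 to 10.6 RPKM in ischemia/reperfusion and at 7.21 to 8.5 and 6.92 to 8.11 RPKM in sham.

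Nab2, the corepressor that is itself induced by Egr1, lies on chromosome 10 from 127660918 to 127666703 (minus strand). It had 42.1, 27.8 and 31.9 CPM in ischemia/reperfusion, against 22.7, 25 and 24.6 CPM in sham. Ischemia/reperfusion replicate 1, the lowest of its group for Egr1, was the highest for Nab2. For Nab2 the log2 fold change was 0.49 ± 0.14 (SE), a 1.41-fold difference, with an edgeR adjusted p of 0.185. Without ischemia/reperfusion replicate 1 the value was 0.30 (adjusted p = 0.146), with the libraries of the groups still apart. The end of the Nab2 row overlaps that of Stat6 on the other strand, over 0.389% of the Stat6 span. Whether counting used strand is not stated in the labels, so reads of this stretch cannot be assigned. Stat6, a cytokine-activated transcription factor, had 9.42 to 13 CPM in ischemia/reperfusion and 8.44 to 10.6 CPM in sham.

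Nab1, the corepressor expressed without induction, had 31.3, 27.5 and 30.8 CPM in ischemia/reperfusion, against 30.7, 32.8 and 27.8 CPM in sham. The groups covered almost the same range. Its row spans chromosome 1 from 52455849 to 52500448 (minus strand). The log2 fold change was −0.03 ± 0.11 (SE, edgeR adjusted p = 0.925), and its sign turned with the filter and with the libraries used. The ratio of Nab2 to Egr1 in RPKM was 1.6, 0.567 and 0.642 in ischemia/reperfusion, against 0.897, 0.713 and 1.36 in sham, so the groups overlapped in the balance of corepressor and activator transcripts.

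**Figure D2:**
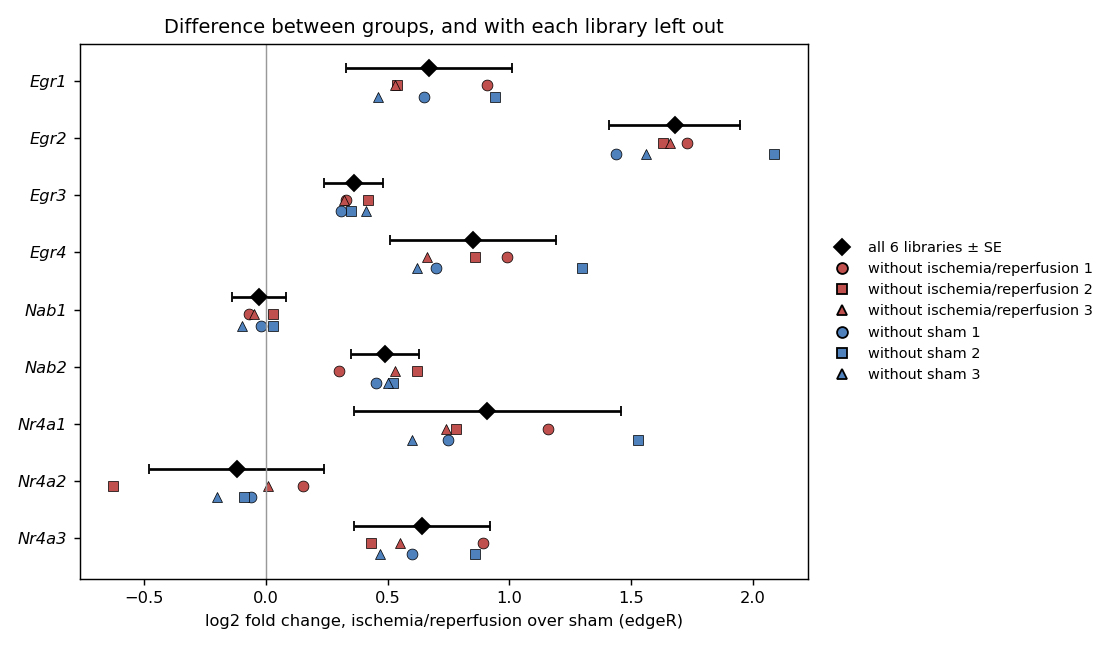
Log2 fold change of ischemia/reperfusion over sham (x axis, edgeR) for each member, with the value from all 6 libraries and its SE in black and the 6 values with 1 library left out in colour. Egr2 stays between 1.44 and 2.09, Nr4a1 ranges from 0.60 to 1.53, and Nr4a2 lies on both sides of 0.

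Nr4a1 (Nur77), which pairs with retinoid X receptors and is also known for a role in apoptosis, lies on chromosome 15 from 101266846 to 101274794 (plus strand). It had 26.4, 50.8 and 52.7 CPM in ischemia/reperfusion, against 17.7, 39.2 and 12.3 CPM in sham. Sham replicate 2 lay above ischemia/reperfusion replicate 1, and relative to their mean the sham libraries spread more than those of any other member. The log2 fold change was 0.91 ± 0.55 (SE, edgeR adjusted p = 0.488), and 1.53 without sham replicate 2 (adjusted p = 0.277). Without sham replicate 3 it was 0.60 (edgeR adjusted p = 0.655). With SD values of 14.7 CPM in ischemia/reperfusion and 14.2 CPM in sham around means of 43.3 CPM in ischemia/reperfusion and 23.0 CPM in sham, the spread was large in each group.

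Nr4a3 (NOR-1), the Nr4a receptor that does not pair with retinoid X receptors, lies on chromosome 4 from 48051248 to 48083352 (plus strand). It had 3.27, 6.74 and 5.96 CPM in ischemia/reperfusion, against 3.24, 4.4 and 2.61 CPM in sham. Ischemia/reperfusion replicate 1 was level with sham replicate 1, and the others lay above all sham libraries. For Nr4a3 the log2 fold change was 0.64 ± 0.28 (SE, edgeR adjusted p = 0.305). Without ischemia/reperfusion replicate 1 it was 0.89 and passed the threshold (adjusted p = 0.0473). Without ischemia/reperfusion replicate 2 it was 0.43 (edgeR adjusted p = 0.507).

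Nr4a2 (Nurr1), which midbrain dopamine neurons need for their development, ranked the libraries differently from the other Nr4a genes. It lies on chromosome 2 from 57107226 to 57124003 (minus strand). It had 9.09, 24.7 and 12.6 CPM in ischemia/reperfusion, against 18.1, 17.4 and 14.8 CPM in sham. The sham libraries lay close together, and the ischemia/reperfusion libraries fell on both sides of them. For Nr4a2 the log2 fold change was −0.12 ± 0.36 (SE, edgeR adjusted p = 0.902). It was 0.15 without ischemia/reperfusion replicate 1 and −0.63 without ischemia/reperfusion replicate 2 (edgeR unadjusted p = 0.00289, adjusted p = 0.158). Ischemia/reperfusion replicate 1, the lowest for Nr4a2, was also the library with the low dentate gyrus markers, where Dsp had 0.783 CPM against 15.9 and 19.9 CPM in the other ischemia/reperfusion libraries and 14.2 to 22.5 CPM in sham. The part of tissue composition in this result was not tested, and in bulk tissue fewer cells of a type and less RNA per cell cannot be told apart.

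Clone rows overlapped the spans of 3 members, 5 of them at Nr4a2, 2 at Nab1 and 1 at Egr3. Of the 5 at Nr4a2, 4 lay wholly within the span on its strand and had 9 to 38 counts per library, against 453 to 1143 counts for Nr4a2 itself. The highest of these, fantom3_D430004G14, had 0.482, 0.562 and 0.815 CPM in ischemia/reperfusion, against 0.553, 0.494 and 0.331 CPM in sham (log2 fold change 0.43 ± 0.37, edgeR adjusted p = 0.599). Within Nab1, fantom3_A130077H17 had 1.18 to 1.38 CPM in ischemia/reperfusion and 0.983 to 1.42 CPM in sham.

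Egr1, Egr4 and Nr4a1 ranked the 6 libraries in the same order, with ischemia/reperfusion replicates 3 and 2 highest, then sham replicate 2, ischemia/reperfusion replicate 1, sham replicate 1 and sham replicate 3. This order was found in 0.246% of all rows tested, and Nr4a3 differed from it only in the order of the highest pair. Ischemia/reperfusion replicate 1 was the lowest of its group for 6 of the 9 members and sham replicate 2 the highest of its group for 7, against 36% and 36.1% of all rows. Of 24 other immediate early genes, 11 were also lowest in ischemia/reperfusion replicate 1 within their group. Among them, and chosen after its values were seen, Fos, a subunit of AP-1, had 47.7, 95.6 and 177 CPM in ischemia/reperfusion, against 9.71, 85.5 and 14.7 CPM in sham, so that sham replicate 2 lay above ischemia/reperfusion replicate 1 as for Egr4 and Nr4a1. Over all 24 the mean deviation from the sham mean on the log2(CPM + 0.05) scale was 1.06, 0.99 and 1.37 in ischemia/reperfusion replicates 1, 2 and 3, with Arc and Atf3 among those highest in replicate 1.

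**Figure D3:**
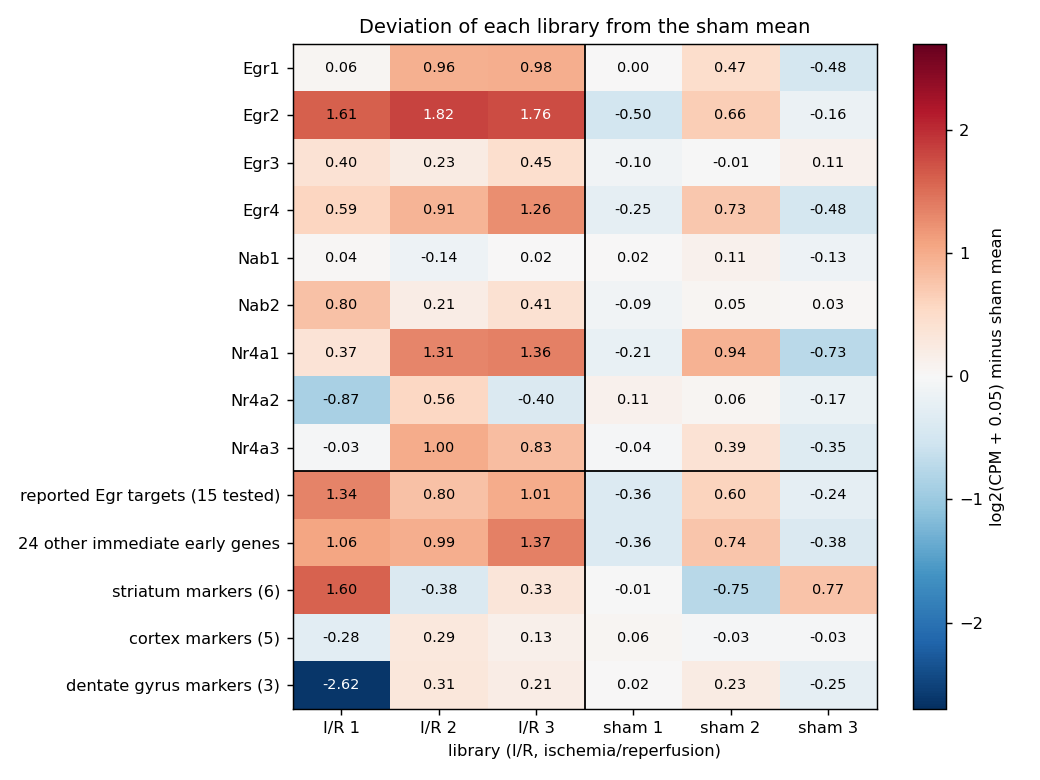
Deviation of each library from the sham mean in log2(CPM + 0.05) (colour scale and printed values) for the 9 members and, below the line, the mean over the genes of 5 lists, with ischemia/reperfusion libraries (I/R) on the left and sham libraries on the right. Egr2 lies 1.61 to 1.82 above the sham mean in all ischemia/reperfusion libraries, while in replicate 1 Nr4a2 is at −0.87 and the dentate gyrus markers are at −2.62.

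On the RPKM scale, which allows levels to be compared between genes, Nr4a1, Egr1 and Nab2 were the most abundant members in ischemia/reperfusion, at 17.8 ± 5.97, 16.5 ± 5.20 and 13.4 ± 3.02 RPKM (SD, n = 3), and their ranges overlapped. Egr3 (9.95 ± 0.886 RPKM) and Egr4 (8.15 ± 1.92 RPKM) followed with overlapping ranges, Egr3 reaching 10.6 RPKM against a lowest value of 10.8 RPKM for Nab2 and 10.5 RPKM for Egr1. Nab1 (5.99 ± 0.489 RPKM) lay below Egr4 without overlap, followed by Nr4a2 (4.69 ± 2.41 RPKM), Nr4a3 (2.87 ± 0.961 RPKM) and Egr2 (1.76 ± 0.120 RPKM), each overlapping its neighbour. In sham the order was Egr1, Nab2, Nr4a1, Egr3, Nab1, Nr4a2, Egr4, Nr4a3 and Egr2, between 9.92 ± 3.12 and 0.527 ± 0.229 RPKM. The ranges of the highest 4 sham members overlapped in sequence, as did those of Nr4a2 and Egr4, and the other neighbours were separate. Egr2 was thus the least abundant member in each group despite having the largest fold difference.

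The make-up of the families was compared within each library as shares of summed RPKM. Egr2 formed 5.62%, 4.88% and 4.25% of Egr RPKM in ischemia/reperfusion, against 1.7%, 2.81% and 2.43% in sham. The groups did not overlap, and an exact two-sided permutation test gave p = 0.1, the smallest that 3 against 3 libraries allow (adjusted p = 0.48 over 12 shares and ratios). Nr4a1 formed 70.5%, 65.2% and 75.4% of Nr4a RPKM in ischemia/reperfusion, against 50.1%, 67.7% and 46% in sham. Nr4a2 formed 18%, 23.4% and 13.4% in ischemia/reperfusion, against 37.9%, 22.3% and 41.1% in sham. For both shares sham replicate 2 lay within the ischemia/reperfusion range, and the exact two-sided permutation p was 0.2 (adjusted p = 0.48). The share of Nr4a3 was nearly constant, at 11.2% to 11.5% in ischemia/reperfusion and 10% to 12.8% in sham.

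**Figure D4:**
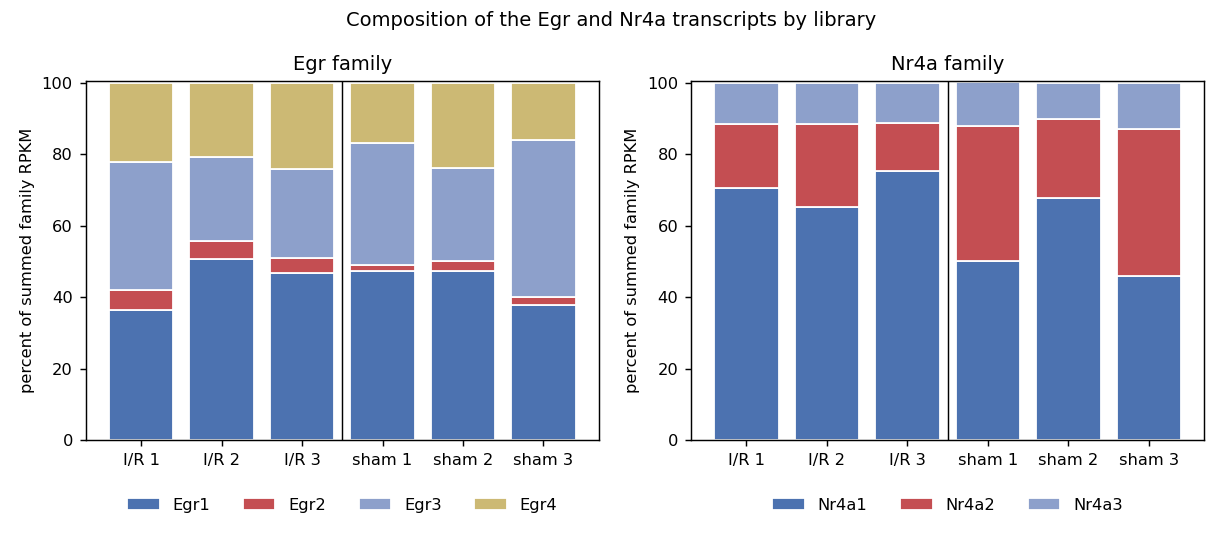
Share of each gene in the summed RPKM of the Egr family (left) and of the Nr4a family (right), in percent, for the 3 ischemia/reperfusion libraries (I/R) and the 3 sham libraries. The Egr2 band is wider in ischemia/reperfusion (4.25% to 5.62%) than in sham (1.7% to 2.81%), and the Nr4a1 band of sham replicate 2 (67.7%) lies within the range of the ischemia/reperfusion libraries (65.2% to 75.4%).

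Of 18 listed activators and kinases (serum response factor and its Elk partners, CREB family members, Mef2 factors and kinases), 0 passed an adjusted p of 0.05 with edgeR or DESeq2. Without adjustment 2 were higher and 1 was lower at p under 0.05 with edgeR, against 8.73% and 6.9% of all rows. The median log2 fold change was 0.02. Elk1, a serum response factor partner, had 36 ± 1.94 CPM in ischemia/reperfusion and 45.6 ± 4.59 CPM in sham (SD, n = 3 each). Crtc2, a CREB coactivator, had 7.12 ± 1.42 and 5 ± 0.386 CPM in ischemia/reperfusion and sham, and Mef2d, an activity-dependent transcription factor, had 30.7 ± 2.74 and 25.5 ± 1.89 CPM. For partners and corepressor subunits, 0 of 11 passed with either tool, 2 were higher and 1 lower unadjusted, and the median was −0.04. Rxra, the retinoid X receptor that pairs with Nr4a1 and Nr4a2, had 40.1 ± 2.8 CPM in ischemia/reperfusion and 49.1 ± 0.726 CPM in sham, without overlap. Rcor1, a CoREST subunit, had 9.07 ± 1.99 and 6.85 ± 0.56 CPM in ischemia/reperfusion and sham, Mta1, a NuRD subunit, had 20.4 ± 2.58 and 16.2 ± 1.78 CPM, and Rbbp4, a histone-binding subunit, had 86.2 ± 4.7 and 99.1 ± 7.88 CPM.

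The lists of Egr and Nr4a targets were chosen with earlier results of these data known. Of 17 listed Egr targets 15 were tested and 13 were positive, with a median log2 fold change of 0.80. At p under 0.05 with edgeR before adjustment, 5 were higher and 0 lower. Of all rows tested 53.1% were positive, 8.73% were higher and 6.9% were lower by these rules. None of the 15 targets passed with edgeR. DESeq2 called 2, Arc among them, against 1.8% of the rows it adjusted. Arc is also counted among the other immediate early genes below and their DESeq2 calls. Arc, a regulator of synaptic strength, had 288, 114 and 190 CPM in ischemia/reperfusion, against 50, 52.5 and 39 CPM in sham. Cxcl2, a neutrophil chemokine, had 2.88 ± 1.25 CPM in ischemia/reperfusion and 0.51 ± 0.563 CPM in sham, and Vegfa, an angiogenic factor, had 45.9 ± 8.37 and 35.3 ± 6.31 CPM (SD, n = 3 each). For Arc and Cxcl2 ischemia/reperfusion replicate 1, in which Egr1 was low, was the highest library, Cxcl2 reaching 3.99 CPM in it. Of the neutrophil and monocyte markers 5 of 5 tested were positive, with sums of 9.13 to 15.3 CPM in ischemia/reperfusion and 4.61 to 7.66 CPM in sham. Of the microglia markers 5 of 5 were positive, with sums of 77 to 120 CPM in ischemia/reperfusion and 71.3 to 90.2 CPM in sham, and the part of these cells in the Egr target values was not tested. Of 13 listed Nr4a targets 12 were tested, with 3 positive and 9 negative, a median of −0.19, 1 higher and 1 lower unadjusted, and 0 passing with either tool. Their mean deviation from the sham mean in log2(CPM + 0.05) was −0.61 in ischemia/reperfusion replicate 1, against −0.06 and −0.16 in replicates 2 and 3. Replicate 1 was the library low in Nr4a2 and in dentate gyrus markers. Of the 12 targets, 4 were lowest of their group there, against 36% of all rows. Slc6a3, the dopamine transporter, named after its values were seen, lowered the mean of replicate 1 the most. It had 0.863, 38.6 and 27.3 CPM in ischemia/reperfusion, against 40.3, 47.3 and 17 CPM in sham. The part of tissue composition in these values was not tested. Bdnf, the neurotrophin, had 37.7 ± 10.2 CPM in ischemia/reperfusion and 24.2 ± 4.33 CPM in sham, and Slc2a4, an insulin-regulated glucose transporter, had 1.73 ± 0.462 and 2.79 ± 0.483 CPM. Vip, a neuropeptide, had 16.2 ± 4.03 and 19.4 ± 2.07 CPM in ischemia/reperfusion and sham, and Eno3, a muscle enolase, had 3.32 ± 0.467 and 4.06 ± 0.232 CPM.

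Other immediate early genes gave the setting for the members. This list was chosen with earlier results of these data known. All 24 listed were tested and positive, against 53.1% of all rows, with a median log2 fold change of 0.90. With edgeR 11 were higher at an unadjusted p under 0.05, against 8.73% of all rows, and 0 passed the threshold. DESeq2 called 5, against 1.8% of the rows it adjusted. Jun, a subunit of AP-1, had 123 ± 35.8 CPM in ischemia/reperfusion and 52.4 ± 7.8 CPM in sham, and Ier5, a regulator of heat shock factor, had 120 ± 22.5 and 75.7 ± 10.3 CPM. Sik1, a kinase that restrains CREB coactivators, had 23 ± 2.9 CPM in ischemia/reperfusion and 14.5 ± 3.64 CPM in sham. Among the members, only Egr2 was called by DESeq2, and whether the members differ from the other immediate early genes was not tested.

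Genes most like a member across the 6 libraries were sought among 14441 other gene-symbol rows with a mean of at least 1 CPM, by Pearson's r of log2(CPM + 0.05). The 6 libraries share the group difference, and r is given as a description. Egr1 was most like Ttn (r = 0.995), 2410137F16Rik (0.994) and Frmpd3 (0.988). Nr4a1 was most like St3gal1 (0.995), Gm10658 (0.991) and Stx4a (0.981). Nab2 was most like Chac1 (0.995), which degrades glutathione in the integrated stress response, Col24a1 (0.992) and Tmod1 (0.990). Chac1 had 30.5, 10.8 and 15.3 CPM in ischemia/reperfusion, against 7.35, 8.95 and 7.65 CPM in sham, with replicate 1 the highest as for Nab2. Ttn, the giant muscle protein titin, had 16.2, 22.9 and 24.7 CPM in ischemia/reperfusion, against 16.3, 19.5 and 13.3 CPM in sham.

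In the table deposited by the authors, 7 of the 9 members had a q-value under 0.05, against 24.5% of its rows, and the exceptions were Nab1 and Nr4a2. Its log2 fold changes, ratios of mean RPKM of ischemia/reperfusion over sham, ran from −0.07 for Nr4a2 to 1.74 for Egr2 in the authors' deposited table. How those q-values were computed is not stated in the labels.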

How the data were processed

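Per the labels' protocols, total RNA depleted of ribosomal RNA was sequenced as read pairs. Per the submitters' processing notes the build was mm10. No aligner, counter or strand setting is named in the sources used here. The deposited counts are raw, per row (56826 rows, 23473 with gene symbols and 33353 cDNA clones). The deposited RPKM values equal counts divided by row length in kilobases and by the column total, within a relative tolerance of 0.001. The authors' comparison holds mean RPKM, log2 fold changes, p-values and q-values.

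The main test of the counts was robust quasi-likelihood in edgeR 4.0.16 (R 4.3.3; TMM, filterByExpr), with DESeq2 1.42.0 and limma-voom (limma 3.58.1) as alternatives. SE was taken as log2 fold change over the root of F. The tests were tested on simulated data. Replicate pairs differed by more than sampling noise. Members and gene lists were chosen with earlier results of these data known. Named genes were all members, up to 4 genes of each list with the smallest p, the 3 genes most like Egr1, Nr4a1 and Nab2, and up to 3 overlapping clone rows. Some list genes that this rule names are not reported here. The alternatives also comprised gene-symbol rows alone, RLE factors, no filter, a minimum mean of 1 CPM, no robust estimation, the replicate number as a block, and leaving out each library.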

Additional observations from a re-analysis of the deposited data

How the results depend on the processing

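Of 126 alternative values of the members' log2 fold changes, 115 kept direction and side of the threshold, 5 passed it (4 for Egr2 and 1 for Nr4a3) and 6 changed sign. Members past the threshold, 0 in edgeR, were 1 with no low-count filter, 1 with DESeq2 and 0 to 2 with a library left out. Members with an unadjusted p under 0.05, 5 in edgeR, were 2 (without sham replicate 1) to 7 (without sham replicate 2) with a library left out, where 9.27% and 11.9% of all rows had such a p. Members with groups that do not overlap, 3 of 9 against 21.6% of all rows in either direction, were 3 to 7. They were 7 without ischemia/reperfusion replicate 1 (39.3% of all rows) or sham replicate 2 (31.9% of all rows). Rows past the threshold, 1 of 40170, were 77 with no low-count filter, 0 with a mean of at least 1 CPM, 0 with gene-symbol rows alone, 584 with DESeq2, 4 with limma-voom, 4 in edgeR without robust estimation, and 0 to 1057 with a library left out. Nab1 changed sign with a mean of at least 1 CPM (0.01), with gene-symbol rows alone (0.02) and without ischemia/reperfusion replicate 2 or sham replicate 2 (0.03 each), with a range of −0.10 to 0.03 over the libraries left out. Nr4a2 changed sign without ischemia/reperfusion replicate 1 (0.15) or 3 (0.01), with a range of −0.63 to 0.15. The cause was not tested.

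With the replicate number as a block 0 rows and 0 members passed, and Egr2 had a log2 fold change of 1.74 (edgeR adjusted p = 0.196). The deviations of libraries with the same number correlated at −0.07, 0.03 and 0.11 for replicates 1, 2 and 3. Those of libraries with unlike numbers correlated at −0.135 to 0.11, so pairing by number was not evident. Whether libraries of the same number were handled together was not tested. At the depth of these libraries 3 counts correspond to 0.0604 to 0.066 CPM, and the lowest raw counts among the members were 51 to 252 for Egr2 and 126 to 312 for Nr4a3. How the calls depend on depth was not tested.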
